A study of Brassica napus with 9 samples.

Results

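The comparison D + F vs. D measured what a fullerol spray on the leaves changed in the transcriptome of drought-stressed rapeseed (*Brassica napus*). It used 6 of the 9 leaf RNA-seq libraries of the series, chosen by their labels: 3 D libraries and 3 D + F libraries. All plants were of the genotype Zhongshuang 11, grown 4 to a pot in a chamber with a 14 h photoperiod at 25 °C by day and 18 °C by night. In both groups the soil water was lowered from day 20 after sowing and reached 30% of field capacity on day 25, when leaf 3 was sampled. Between days 21 and 25 the leaves of each pot received 5 mL every other day, of distilled water in D and of 100 mg/L fullerol in D + F. The remaining 3 libraries came from CK plants, which were kept at 80% of field capacity and sprayed with water. They entered no test and are given as a reference level. Each group had 3 biological replicates, and whether a library pooled several plants is not stated.

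Fullerol is a fullerene cage that carries hydroxyl groups, which make it soluble in water. Drying plants commonly accumulate proline, which is built from glutamate by P5CS, broken down by PRODH and P5CDH, and serves as an osmolyte. Glutamine synthetase, encoded in the cytosol by *GLN1* genes, joins ammonium to glutamate, so both enzymes draw on the same amino acid. Phenylalanine, in turn, enters the phenylpropanoid pathway through PAL and is carried on to lignin precursors and flavonoids. *B. napus* holds an A and a C subgenome, so most enzymes are encoded by several copies that are named here by their identifiers.

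Levels are FPKM, the read pairs on a gene scaled to its length and to the read pairs of the library. The 6 libraries held 22809167 to 26042002 read pairs on genes, so that 3 reads on a gene of 1 kb were worth 0.115 to 0.132 FPKM. Of 104592 genes, 48044 exceeded an FPKM of 1 in 3 or more of the 6 libraries and entered the limma fit on log2(FPKM + 1), and a fold change on this scale understates the change of low genes. Of the 25 genes on the study's porphyrin and chlorophyll list, 24 were above 1 FPKM in all 6 libraries, and no marker specific to leaf was tested. Of 10 *P5CS*, *GOLS2* and *RFS2* genes taken as drought markers, 10 were higher in every D library than in any CK library, and 9 were so in D + F. They were taken from the study's own gene list for these libraries, so the count is not an independent check of drought. Other galactinol and raffinose genes of that list went the other way. The means in CK and D were 28.5 and 0.0725 FPKM for *GOLS3* BnaA09g48480D, and 7.53 and 1.46 FPKM for *RFS5* BnaA04g10260D. Markers of other leaf cell types could not be tied to the identifiers. Correlations across genes ran from 0.959 to 0.964 between D libraries, from 0.938 to 0.971 between D + F libraries, and from 0.923 to 0.957 between the groups, with genes not being independent replicates.

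In D + F vs. D, 644 genes were DEGs, meaning a Benjamini-Hochberg adjusted p under 0.05 in limma with no minimum change, which is 1.34% of the genes tested. Of these, 447 were up-regulated (0.93% of the genes tested) and 197 were down-regulated (0.41%). The up-regulated genes had a median log2 fold change of 1.31, and 65 of them reached at least 2. The down-regulated genes had a median of -1.76, and 77 reached -2 or lower. In all 644 DEGs the 3 D + F libraries lay on one side of the 3 D libraries, a separation that 24.7% of the tested genes showed (19.6% with D + F above D and 5.12% with D + F below D). Where groups of an uncalled gene are said below not to overlap, these shares are the measure to set beside it. The A subgenome held 300 DEGs (1.4% of its tested genes) and the C subgenome 327 (1.36%). Values were slightly higher across the whole table in D + F, with a median log2 difference of 0.13 over all tested genes. After median-of-ratios scaling, which moved that median to 0.01, 563 genes were DEGs (1.17%), of which 316 were up-regulated and 247 down-regulated. The up-regulated share thus went from 69.4% to 56.1% of the DEGs, and to 52.7% after quantile normalization.

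The number of DEGs depended on single libraries. Leaving out D replicate 1 left 1 DEG (0.00208% of the genes tested) and leaving out D + F replicate 2 left 2 (0.00416%), while 6479 and 5869 genes still had an unadjusted p under 0.05. Without D replicate 2 there were 15 DEGs (0.0312%), without D + F replicate 3 there were 34 (0.0708%), and without D replicate 3 there were 186 (0.387%). Without D + F replicate 1 the count was 637 (1.33%), of which 381 were among the 644. The share of tested genes with an unadjusted p under 0.05 was 17.5% with all 6 libraries, 13.5%, 13.5% and 15% without D replicates 1, 2 and 3, and 23.5%, 12.2% and 12.8% without D + F replicates 1, 2 and 3. The lowest adjusted p in limma was 0.00772, and 258 of the 644 DEGs lay between 0.04 and 0.05. Every DEG named below by symbol, 27 in all, kept its direction and stayed under an unadjusted p of 0.05 when any of the 6 libraries was left out. The groups of all 644 DEGs did not overlap, so leaving a library out could not reverse a direction. The low unadjusted p is not independent evidence either, as these genes were called on the same libraries. Of the 27, 21 were still called without D + F replicate 1 and 12 without D replicate 3. Only 3 were called without D replicate 2 and 1 without D + F replicate 3, and none was called without D replicate 1 or D + F replicate 2.

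**Figure D1:**
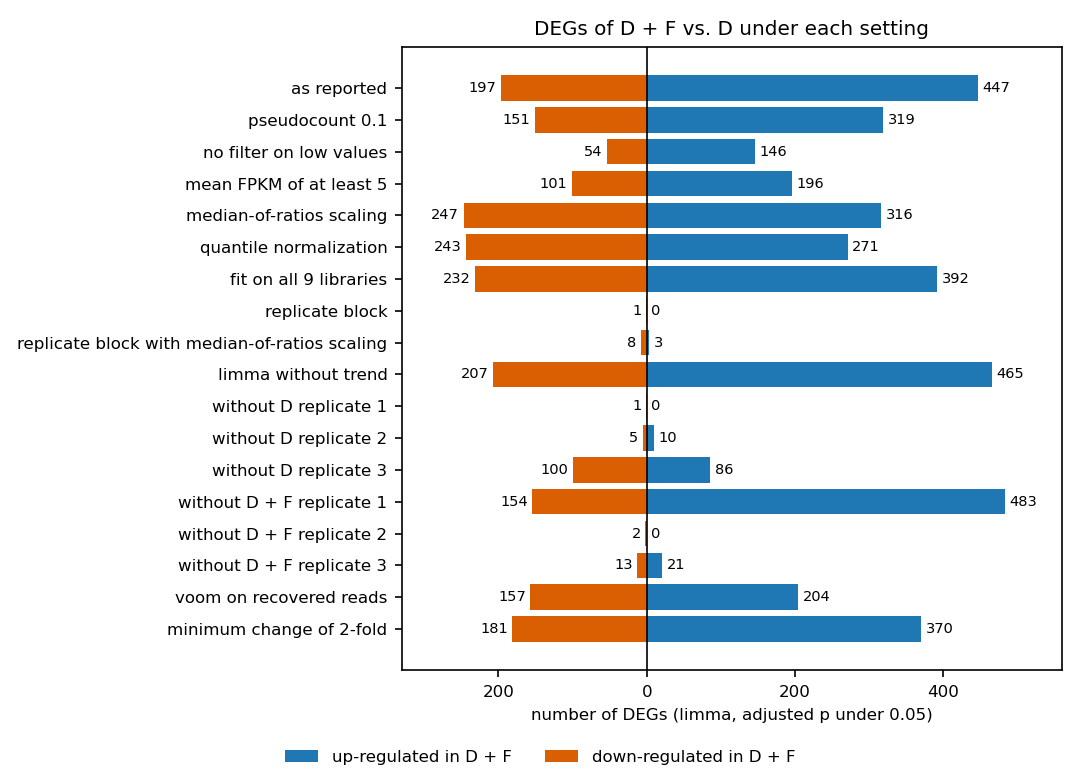
Number of DEGs of D + F vs. D, up-regulated to the right and down-regulated to the left, as reported and under each other setting, with the counts printed at the bars. As reported there were 447 and 197, and the count fell to 1 without D replicate 1 and to 2 without D + F replicate 2.

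Among 139 genes with a symbol, 120 passed the filter on low values, 19 were up-regulated and 8 down-regulated. Their median log2 fold change was -0.02, against 0.13 over all genes tested. The study picked most of these genes as differentially expressed in these libraries, so their share of DEGs is not independent evidence. In bulk leaf RNA, fewer cells of a type and less RNA per cell cannot be told apart. The genes of glutamine and glutamate, the cell wall, and phenylpropanoids and flavonoids had the highest medians, and the genes of proline synthesis had the lowest. Reads of near-identical copies can be split between them in a way the sources do not describe, which makes a single copy's level less certain than that of a family. The libraries are not stated to keep the strand, so reads from an overlapping antisense gene could not be told apart.

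**Figure D2:**
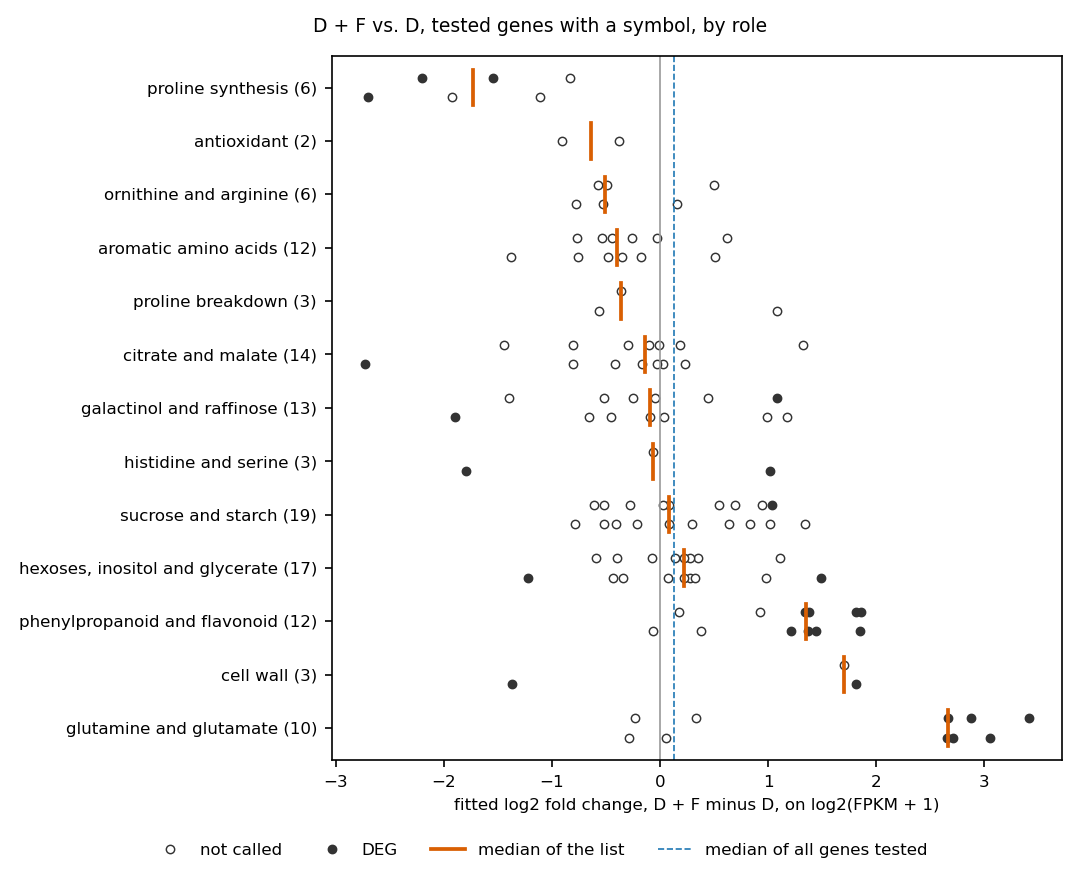
Fitted log2 fold change (D + F minus D, on log2(FPKM + 1)) of the 120 tested genes with a symbol, grouped by role, with filled points for DEGs, an orange bar for the median of each group and a dashed line for the median of all tested genes. Proline synthesis lies furthest to the left, with all 6 points below 0, and glutamine and glutamate lies furthest to the right at a median of 2.66.

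Genes of proline synthesis were lower in D + F. All 6 copies of *P5CS1* and *P5CS2*, which encode the enzyme of the first and rate-limiting step from glutamate, were lower in every D + F library than in any D library, and 3 of the 6 were down-regulated DEGs. Their median log2 fold change was -1.73. Over all genes tested, 5.12% were lower in every D + F library and 0.41% were down-regulated DEGs. The study had listed these 6 *P5CS* copies on the same libraries. Added over the 6 copies, the level was 1100, 865 and 823 FPKM in the D libraries and 312, 443 and 380 FPKM in the D + F libraries, against 26.4 ± 1.49 FPKM (SD, n = 3) in CK. The lowest D library was thus well above the highest D + F library, and all 6 libraries stood far above CK.

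The *P5CS1* copy with the largest fall was BnaC04g46630D, at 172, 98.1 and 163 FPKM in D and 12, 31.0 and 23.3 FPKM in D + F. Its log2 fold change was -2.70 ± 0.36 (SE), with a limma adjusted p of 0.0290. *P5CS2* BnaA09g35230D fell from 56.6, 46.1 and 40.6 FPKM to 9.50, 13.3 and 6.84 FPKM. The D + F level, 9.86 ± 3.23 FPKM (SD, n = 3), stayed above the 5.25 ± 0.461 FPKM of CK in every library, and the change was -2.20 ± 0.24 (SE, limma adjusted p = 0.0179). The third DEG, *P5CS1* BnaA04g22810D, was a minor copy at 6.84, 6.81 and 11.3 FPKM in D and 1.53, 3.35 and 1.78 FPKM in D + F. Its adjusted p in limma was 0.0491, next to the threshold.

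Most of the *P5CS* transcript came from a copy that was not called. *P5CS1* BnaC04g05620D had 532, 504 and 397 FPKM in D and 208, 297 and 303 FPKM in D + F. It had a log2 fold change of -0.83 ± 0.21 (SE) with a limma adjusted p of 0.12. Its groups did not overlap, but its relative difference was the smallest of the 6 copies. BnaA05g05760D, a further *P5CS1* copy, had 284, 179 and 178 FPKM in D and 68.3, 76.2 and 30.7 FPKM in D + F (limma adjusted p = 0.0603). Without D replicate 1, D replicate 2, D + F replicate 2 or D + F replicate 3, none of the 6 was called in limma, without D replicate 3 there was 1 and without D + F replicate 1 there were 2. In every such fit all 6 copies stayed under an unadjusted p of 0.05.

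Genes of proline breakdown gave no DEG in limma among 3 tested of 6, although all 3 had an unadjusted p under 0.05. *P5CDH* BnaC03g74750D, the most abundant, had 91.5, 88.3 and 80.1 FPKM in D and 61.2, 68.5 and 72.6 FPKM in D + F (limma adjusted p = 0.249). *PRODH1* BnaA06g39660D, for the first enzyme of proline oxidation, had 0.634, 0.233 and 2.2 FPKM in D and 4.93, 1.65 and 2.90 FPKM in D + F. The groups overlapped, and every D and D + F library lay below all CK libraries, which had 10.9 ± 3.29 FPKM (SD, n = 3).

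Among genes with a symbol, cytosolic glutamine synthetase genes had the largest increases on the log2(FPKM + 1) scale. Both copies of *GLN1-1* and all 4 copies of *GLN1-4* were up-regulated, with log2 fold changes from 2.66 to 3.41. This compares with 0.93% of all genes tested, and the study had listed these copies on the same libraries. Added over these 6 copies, the level was 65.1, 31.8 and 62.7 FPKM in D and 446, 362 and 558 FPKM in D + F, against 1590, 2130 and 2700 FPKM in CK. The 3 groups did not overlap, and D + F lay between D and CK, 8.55 times above D in the mean.

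*GLN1-4* BnaC02g06690D was the most abundant member, at 20.2, 9.20 and 17.9 FPKM in D and 195, 126 and 197 FPKM in D + F. Its mean rose 10.9-fold, with a log2 fold change of 3.41 ± 0.31 (SE) and a limma adjusted p of 0.0167. Its level in CK was 755 ± 279 FPKM (SD, n = 3), above all D + F libraries. *GLN1-4* BnaA10g17910D, the lowest of the 4 copies, had 1.06, 0.527 and 0.280 FPKM in D and 5.85, 11.1 and 12.6 FPKM in D + F, resting on 7 to 27 reads in D. The other *GLN1-4* copies were BnaA02g03140D, at 13.1, 7.66 and 12.1 FPKM in D and 73.4, 59.0 and 89.7 FPKM in D + F, and BnaC09g41340D, at 16.4, 8.56 and 19.4 FPKM in D and 114, 91.8 and 124 FPKM in D + F. For these 3 copies the limma adjusted p was 0.0179 or lower. D replicate 2 was the lowest library for each of the *GLN1-4* copies but BnaA10g17910D, and it was the lowest for both *GLN1-1* copies.

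Of the *GLN1-1* genes, BnaA04g08160D had 4.30, 1.22 and 2.28 FPKM in D and 14.5, 28.6 and 46.5 FPKM in D + F. BnaC04g30250D had 10.1, 4.63 and 10.8 FPKM in D and 44.2, 45.3 and 87.5 FPKM in D + F. D + F replicate 3 was the highest library in both, and the limma adjusted p was 0.0366 and 0.0307.

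The increase did not extend to every gene of the group. *GLN1-3* BnaA05g22420D had 38.1, 41.3 and 27.0 FPKM in D and 29.5, 43.3 and 37.2 FPKM in D + F, which overlapped, and its log2 fold change was 0.05 ± 0.21 (SE, limma adjusted p = 0.916) and became -0.10 after median-of-ratios scaling. It was the most abundant of the *GLN1* genes in D and not in D + F. The 3 copies of *GLT1*, for the NADH-dependent glutamate synthase, had log2 fold changes from -0.29 to 0.34 and none was called. *GSH3* BnaC01g40390D, annotated by the study as a probable glutamate dehydrogenase, did not pass the filter. It had at most 2 reads in a D library, 0.638, 0.342 and 0.742 FPKM in D + F, and 8.05 ± 0.832 FPKM (SD, n = 3) in CK, so that D + F was at least 5.52-fold higher than D with the floor set at 3 reads per library. In the leave-one-out fits, 6 genes of the group were called without D + F replicate 1, 3 without D replicate 3, 2 without D replicate 2, and 0 in limma without D replicate 1, D + F replicate 2 or D + F replicate 3, where the same 6 still had an unadjusted p under 0.05.

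**Figure D3:**
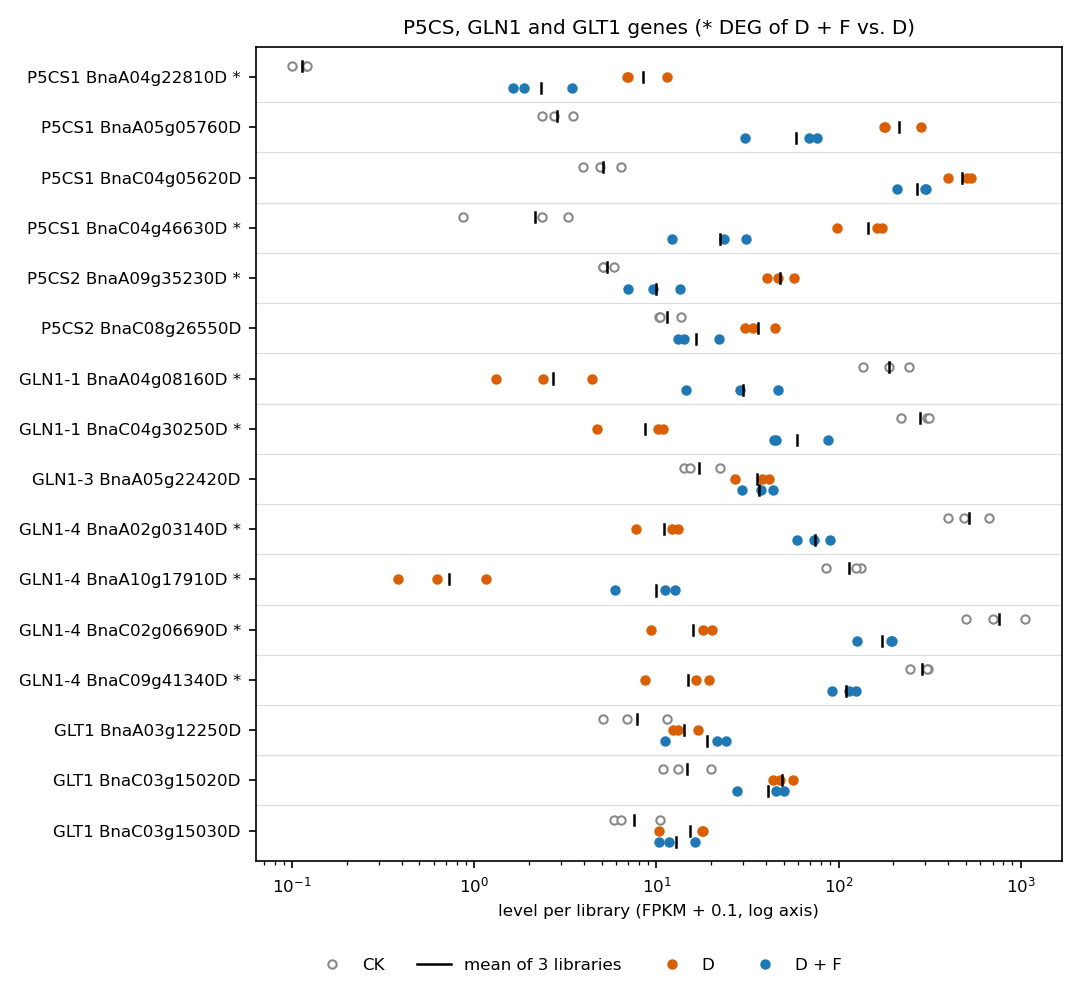
Level of each tested *P5CS*, *GLN1* and *GLT1* gene in the 3 CK (open grey), 3 D (orange) and 3 D + F (blue) libraries, as FPKM + 0.1 on a log axis, with a black bar for the mean of each group and an asterisk for the DEGs. In all 6 *P5CS* genes the D + F mean lies between those of CK and D, and the *GLN1-1* and *GLN1-4* genes show the opposite order, with CK highest.

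Genes of ornithine and arginine metabolism gave 0 DEGs among 6 in limma, 5 of which had an unadjusted p under 0.05. *Acy1b* BnaCnng71090D, for an aminoacylase, was the most abundant and had 133, 131 and 132 FPKM in D and 92.9, 75.1 and 64.8 FPKM in D + F. Its groups did not overlap, and the adjusted p in limma was 0.0790. It was called only without D + F replicate 1, its limma adjusted p running from 0.0490 to 0.255 over the leave-one-out fits. Both copies of *OTC*, for ornithine carbamoyltransferase, were also lower in every D + F library, with log2 fold changes of -0.57 and -0.49 (limma adjusted p = 0.145 and 0.155).

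Genes at the entry of the phenylpropanoid pathway rose, as did a later gene of the flavonoid branch. All 3 copies of *PAL1*, all 3 of *CYP73A5*, for the cinnamate 4-hydroxylase that follows PAL, and both of *CYP75B1*, for the flavonoid 3′-hydroxylase, were up-regulated, 8 of the 12 genes of this group. Among all genes tested, 0.93% were up-regulated DEGs, and the study had listed these 8 genes on the same libraries. The median log2 fold change of the 12 was 1.35. Added over the 4 *PAL* genes, the level was 10.4, 14.1 and 16.2 FPKM in D and 47.1, 47.2 and 43.7 FPKM in D + F. The D + F libraries lay close together, whereas the CK libraries were spread over 39.2, 13.1 and 7.82 FPKM.

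*PAL1* BnaA04g21230D had 3.55, 4.88 and 7.55 FPKM in D and 21.8, 20.6 and 19.2 FPKM in D + F, which is 1.81 ± 0.23 on the log2 scale (SE, limma adjusted p = 0.0248). In BnaC04g08190D, also *PAL1*, the values were 1.44, 1.82 and 2.32 FPKM in D and 10.8, 9.74 and 7.37 FPKM in D + F (log2 fold change 1.85, limma adjusted p = 0.0167). The third *PAL1* copy, BnaA05g07370D, had 1.77, 2.55 and 2.32 FPKM in D and 7.67, 7.12 and 7.14 FPKM in D + F (log2 fold change 1.38, limma adjusted p = 0.0167). *PAL2* BnaC08g24360D, at 3.63, 4.86 and 3.97 FPKM in D and 6.79, 9.74 and 10 FPKM in D + F, was not called (limma adjusted p = 0.0642), although its groups did not overlap. Without D + F replicate 1 it was, and over the leave-one-out fits its limma adjusted p ran from 0.0405 to 0.219.

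*CYP73A5* behaved alike in its 3 copies, which had log2 fold changes of 1.21 to 1.44. Its highest copy, BnaA04g17570D, had 3.53, 3.80 and 4.91 FPKM in D and 14.5, 12.2 and 11.6 FPKM in D + F (limma adjusted p = 0.0178). BnaA03g14010D had 1, 1.66 and 2.57 FPKM in D and 5.98, 6.02 and 5.64 FPKM in D + F, and BnaC03g16960D had 0.779, 1.4 and 1.61 FPKM in D and 3.87, 5.14 and 3.62 FPKM in D + F. Their limma adjusted p-values were 0.0407 and 0.0441.

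*CYP75B1* was near the limit of detection in D. Of the 6 libraries fitted, only those of D + F exceeded 1 FPKM for either copy. Both copies thus passed the filter only through the group where they were high, and their calls are not independent of that. BnaA10g23330D had 0.082, 0.0283 and 0.195 FPKM in D, from 1 to 7 reads, and 3.25, 2.17 and 3.72 FPKM in D + F, a log2 fold change of 1.86 ± 0.19 (SE, limma adjusted p = 0.0167). BnaC09g47980D had 0.176, 0 and 0.219 FPKM in D and 1.55, 2.1 and 1.93 FPKM in D + F (limma adjusted p = 0.0246). Its level in D + F was in the range of CK, which was 1.5 ± 1.89 FPKM (SD, n = 3).

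*HST*, for the hydroxycinnamoyltransferase on the branch to lignin, did not follow. The most abundant gene of the group, *HST* BnaC07g00330D, had 55.6, 53.7 and 72.4 FPKM in D and 53.9, 58.4 and 59.3 FPKM in D + F. These overlapped, with a log2 fold change of -0.07 ± 0.16 (SE, limma adjusted p = 0.842), and none of the 3 *HST* genes was called. Without D replicate 3, 6 genes of the group were called, without D + F replicate 1 there were 7, and without D + F replicate 3 there was 1. In limma 0 were called without D replicate 1, D replicate 2 or D + F replicate 2, where 9 stayed under an unadjusted p of 0.05. The fit on all 9 libraries, with 1.3% of all tested genes called, also called 0 of the 12, again with 9 under an unadjusted p of 0.05.

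**Figure D4:**
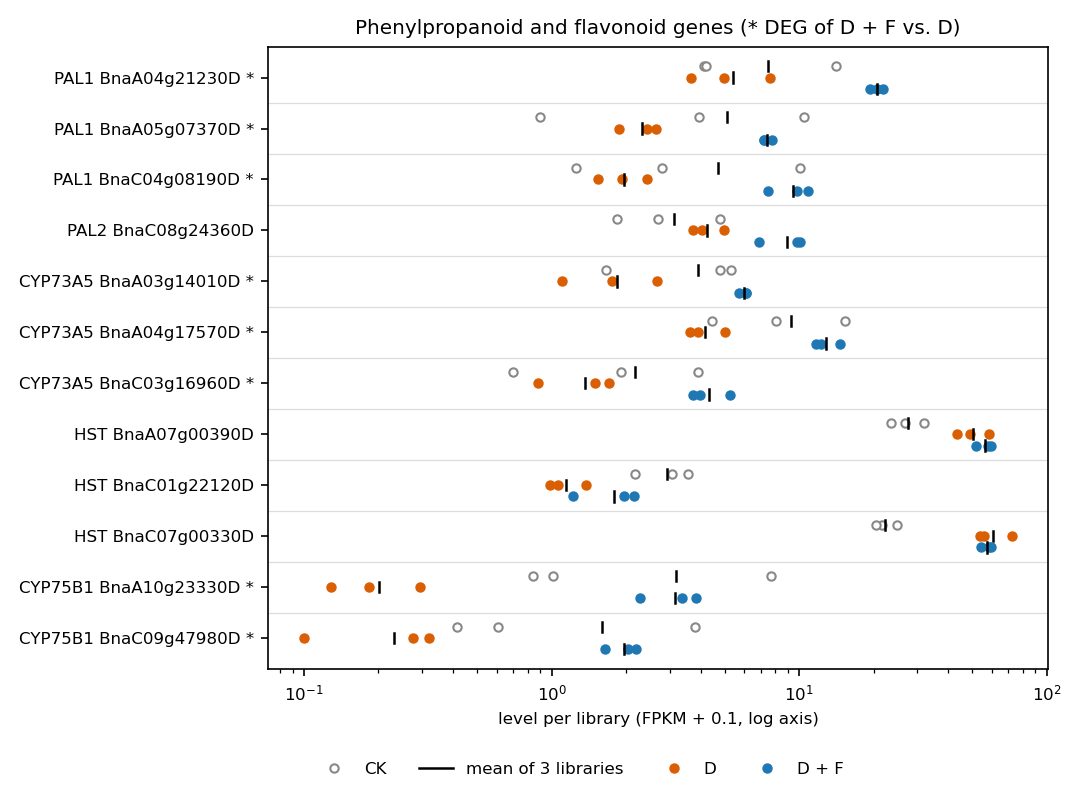
Level of the 12 phenylpropanoid and flavonoid genes in the 3 CK (open grey), 3 D (orange) and 3 D + F (blue) libraries, as FPKM + 0.1 on a log axis, with a black bar for the mean of each group and an asterisk for the DEGs. The D + F points of all *PAL1*, *CYP73A5* and *CYP75B1* genes lie to the right of the D points, while those of *HST* BnaC07g00330D overlap them, and the CK points of the called genes are widely spread.

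Genes of the aromatic amino acids gave 0 DEGs among 12 tested in limma, with 4 at an unadjusted p under 0.05. Of these 12, 6 were *TSB1* copies, for tryptophan synthase, which does not lead to PAL. *CORI3* BnaC01g15060D, listed by the study as an aminotransferase-like protein, was the most abundant, at 221, 220 and 196 FPKM in D and 112, 148 and 116 FPKM in D + F. Its log2 fold change was -0.77 with a limma adjusted p of 0.0802, and the groups did not overlap, as in 5.12% of tested genes in that direction. Both copies of *ADT5*, for arogenate dehydratase of phenylalanine synthesis, were higher in every D + F library (as in 19.6% of tested genes). Their log2 fold changes were 0.62 and 0.51 (limma adjusted p = 0.128 and 0.181). The tested *ADT1* and *ADT2* genes ran from -0.35 to -0.03 and were not called either.

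Genes of the cell wall moved in both directions. *GAE6* BnaA01g23480D, for an epimerase that makes the UDP-galacturonate of pectin, had 9.53, 8.45 and 7.93 FPKM in D and 25.6, 36.6 and 37.3 FPKM in D + F. It rose by 1.81 ± 0.18 (SE) on the log2 scale (limma adjusted p = 0.0167), and all 3 D + F libraries stayed below the 100 ± 30.3 FPKM (SD, n = 3) of CK. *PME3* BnaC01g37010D, for a pectin methylesterase, fell from 41.0, 39.0 and 50.2 FPKM to 22.4, 15.8 and 11.8 FPKM. Its limma adjusted p was 0.0488, and its D + F values were around the 14.6 ± 4.93 FPKM (SD, n = 3) of CK.

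Of the genes of sucrose and starch, 1 of 19 tested was a DEG. *CWINV3* BnaA06g00510D, listed as a cell-wall invertase by its symbol, rose from 1.24, 2.1 and 1.4 FPKM to 3.96, 3.82 and 4.97 FPKM (log2 fold change 1.03, limma adjusted p = 0.0466). It was no longer called after median-of-ratios scaling, where no gene of the group was called. *BAM3* BnaC07g34180D, for a starch-degrading beta-amylase and the most abundant of the group, had 47.4, 50.4 and 65.1 FPKM in D and 115, 82.9 and 138 FPKM in D + F. Every D + F library was above every D library, with a limma adjusted p of 0.0857.

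Genes of galactinol and raffinose, which yield protective sugars in drying leaves, also moved both ways. *RFS2* BnaA09g36810D, assigned to the raffinose genes by its symbol only, fell from 77.0, 40.2 and 72.2 FPKM to 11, 20.2 and 17.1 FPKM. The log2 fold change was -1.89 ± 0.31 (SE, limma adjusted p = 0.0441). Its C copy BnaC08g28500D, the most abundant gene of the group, had 122, 50 and 92.3 FPKM in D and 20, 37.6 and 38.5 FPKM in D + F and was not called (limma adjusted p = 0.134). D replicate 2 was the lowest D library and D + F replicate 1 the lowest D + F library in both copies. The *RFS5* copies went the other way and were not called. BnaA04g10260D had 1.47, 2.12 and 0.808 FPKM in D and 4.41, 4.8 and 4.1 FPKM in D + F (limma adjusted p = 0.0524). BnaC04g56100D had 1.56, 1.95 and 1.25 FPKM in D and 2.93, 4.89 and 4.77 FPKM in D + F (limma adjusted p = 0.0725). *GOLS3* BnaA09g48480D, for a galactinol synthase, was called upward at a low level, from 0.042, 0.175 and 0 FPKM in D, at most 4 reads, to 1.59, 1.04 and 1.19 FPKM in D + F. The limma adjusted p was 0.0423, it was not called after median-of-ratios scaling, and CK had 28.5 ± 16.5 FPKM (SD, n = 3). This *GOLS3* gene also passed the filter only through the D + F libraries, where it was high.

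Of the 17 tested genes of hexoses, inositol and glycerate, 1 rose and 1 fell. *CYT1* BnaA05g05780D, for a mannose-1-phosphate guanylyltransferase that makes GDP-mannose, rose from 14.6, 11.8 and 12 FPKM to 27.1, 38.9 and 49.6 FPKM (log2 fold change 1.49 ± 0.23 SE, limma adjusted p = 0.0383). Another *CYT1* copy, BnaA07g22000D, had the opposite sign, with 15.1, 18.8 and 16.6 FPKM in D and 11.4, 10.9 and 10 FPKM in D + F (log2 fold change -0.60, limma adjusted p = 0.0901). The groups of neither copy overlapped, and in D the levels of the copies were similar. *GAPC* BnaA09g46260D, for the cytosolic glyceraldehyde-3-phosphate dehydrogenase of glycolysis, fell from 26.6, 21.9 and 23.1 FPKM to 11.1, 11 and 7.36 FPKM. Its limma adjusted p was 0.0366. *HPR* BnaA07g24840D, for the hydroxypyruvate reductase of photorespiration, was the most abundant, at 239, 251 and 275 FPKM in D and 232, 182 and 171 FPKM in D + F (limma adjusted p = 0.290).

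Among 14 tested genes of citrate and malate, the only DEG was *NADP-ME1* BnaA07g00860D, for a malic enzyme that turns malate into pyruvate. It fell from 15.8, 7.10 and 11.7 FPKM to 0.501, 1.14 and 0.849 FPKM, a 13.9-fold lower mean. Its log2 fold change was -2.73 ± 0.28 (SE, limma adjusted p = 0.0167), and CK was lower still at 0.101 ± 0.0792 FPKM (SD, n = 3). The C copy BnaC07g01180D had the same direction, 4, 1.24 and 2.62 FPKM against 0.1, 0.570 and 0.174 FPKM, with a limma adjusted p of 0.0794. *MDH1* BnaA03g09800D, for malate dehydrogenase and the most abundant of the group, had 162, 137 and 152 FPKM in D and 136, 126 and 139 FPKM in D + F, and the groups overlapped.

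*HISN1A* BnaC04g18340D, for the first enzyme of histidine synthesis, fell from 3.94, 6.62 and 6.42 FPKM to 1.58, 0.881 and 0.393 FPKM (log2 fold change -1.79 ± 0.27 SE, limma adjusted p = 0.0377). *SDC* BnaAnng06510D, for serine decarboxylase, rose from 2.08, 2.02 and 1.90 FPKM to 5.04, 5.25 and 4.95 FPKM (limma adjusted p = 0.0215). Within each group the 3 libraries of *SDC* lay close together. *HDH* BnaCnng13210D, for the last enzyme of histidine synthesis, had 15.7, 12 and 11.5 FPKM in D and 6.35, 17.4 and 16.4 FPKM in D + F, which overlapped. Of the antioxidant genes, *GPX1* BnaC08g33590D, for a glutathione peroxidase, had 284, 232 and 203 FPKM in D and 117, 168 and 103 FPKM in D + F. These groups did not overlap, but neither *GPX1* (limma adjusted p = 0.116) nor *APX1* was called.

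In several gene families D + F replicate 1 stood below all other D and D + F libraries. This pattern was noticed after the values were seen. It held for all 6 copies of *TSB1*, for the beta chain of tryptophan synthase, for both copies of *GOLS2* and for all 4 copies of *RFS6*. It was not general. Over the 120 tested genes with a symbol, D + F replicate 1 was the lowest D + F library in 55 and the highest in 33. Added over its 6 copies, *TSB1* had 78.5, 47.2 and 28.5 FPKM in D and 11.4, 39.5 and 34.8 FPKM in D + F, against 5.48 ± 1.18 FPKM (SD, n = 3) in CK. D + F replicate 1 was thus nearest to CK while D + F replicates 2 and 3 lay within the range of D. None of these copies was called. Without D + F replicate 1 the log2 fold changes of the *RFS6* copies went from between -0.52 and -0.05 to between 0.07 and 0.30, and none was called in that fit either.

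The pathway lists that the study made for D + F vs. D were counted next, including genes with no symbol. They were chosen by the study on these same libraries and are not independent evidence of a direction. Of 128 genes, 123 were tested, 59 were up-regulated and 14 down-regulated, and the median log2 fold change was 1.06. Over all genes tested, the shares were 0.93% and 0.41%. Flavonoid biosynthesis had 15 of 17 genes up-regulated and none down-regulated, with a median of 1.34. Only 9 of the 17 were above 1 FPKM in all 6 libraries. Its *CYP75B1* copies passed the filter only through D + F, where they were high. Phenylpropanoid biosynthesis had 15 of 23 up-regulated and none down-regulated. Its other 8 genes were not called, and 6 of them were lower in D + F. Phenylalanine metabolism had 10 of 13 up-regulated. In nitrogen metabolism all 7 tested genes were up-regulated, 6 of them the *GLN1-1* and *GLN1-4* copies.

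Other lists were mixed. Arginine and proline metabolism had 6 up-regulated and 3 down-regulated genes of 14, and these 9 are the *GLN1* and *P5CS* genes given above. Amino sugar and nucleotide sugar metabolism had 7 up-regulated and 5 down-regulated of 16. Glutathione metabolism had 7 and 1 of 15, and carbon metabolism had 4 and 3 of 16. After median-of-ratios scaling no gene of carbon metabolism was up-regulated and 10 of 17 in flavonoid biosynthesis were. Leaving out D replicate 1 or D + F replicate 2 left 0 of the 123 called in limma, with 122 at an unadjusted p under 0.05 in each fit.

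**Figure D5:**
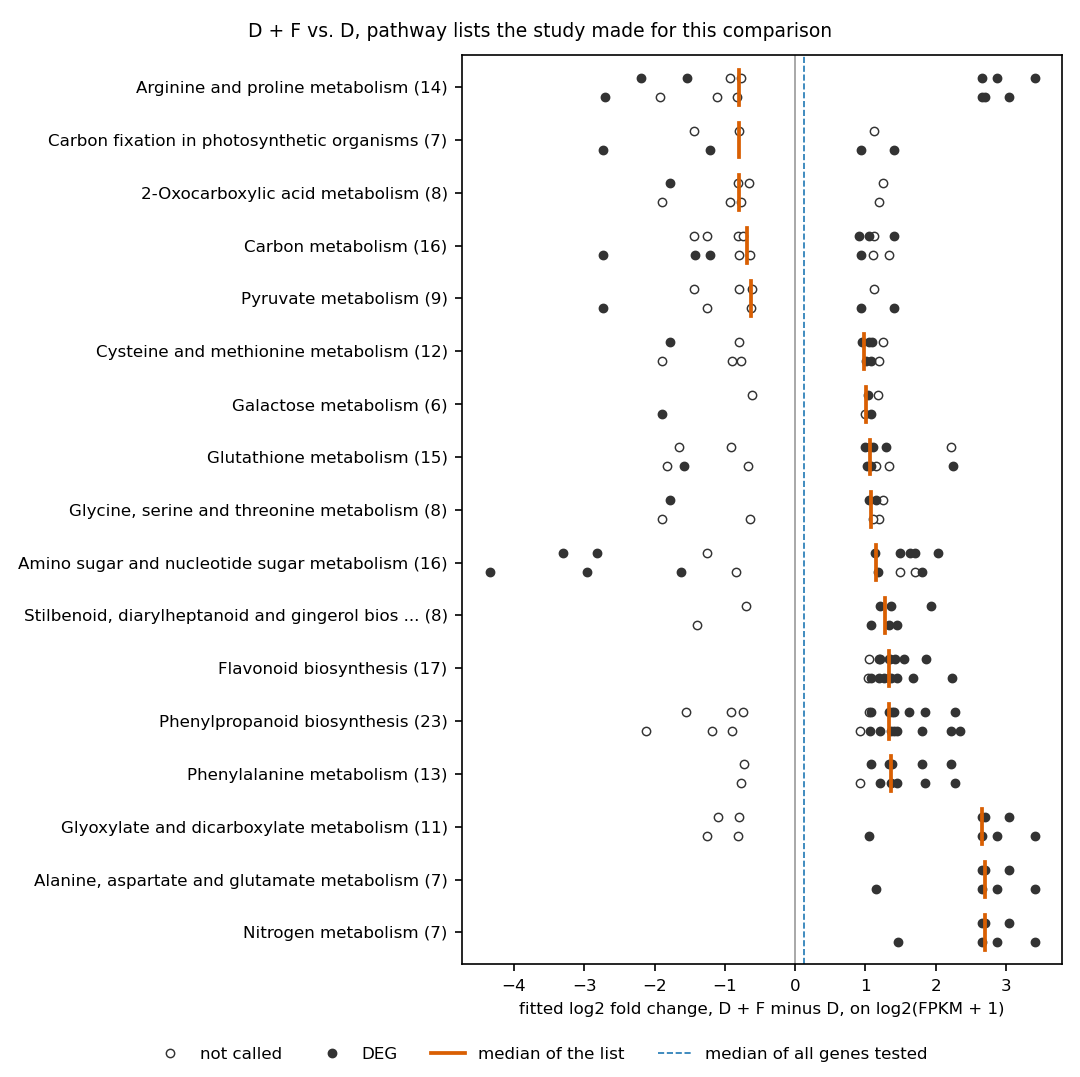
Fitted log2 fold change (D + F minus D, on log2(FPKM + 1)) of the tested genes of each pathway list that the study made for this comparison, with the number of genes in parentheses, filled points for DEGs, an orange bar for the list's median and a dashed line for the median of all tested genes. In flavonoid biosynthesis all 17 points are above 0 and 15 are filled, whereas arginine and proline metabolism splits into 6 genes above 0 and 8 below.

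The study's pathway files assign 71 of these tested genes to 35 sets of 2 or more copies of 1 *B. rapa* gene, and in all 35 sets the copies had the same sign. In 21 sets every copy was a DEG, in 8 only some were, and in 6 none was. The *P5CS1* genes show both cases, with both copies called in the set of BnaA04g22810D and BnaC04g46630D and none in that of BnaA05g05760D and BnaC04g05620D. Since the study listed these genes for a change in this comparison, the shared sign was largely set by that choice and shows nothing about copies in general. Among the genes with a symbol, the *CYT1* copies given above had opposite signs, as did the *SPS2* copies for sucrose phosphate synthase, at 1.34 for BnaA03g03230D and -0.21 for BnaA06g27590D. Neither was called, and the first was called only without D + F replicate 1 among the leave-one-out fits, where its limma adjusted p ran from 0.0342 to 0.276.

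The lists that the study made for D vs. CK share the D libraries with D + F vs. D. Nitrogen metabolism had 7 up-regulated genes of 19 tested, the same 7 as in its list for D + F vs. D, and none down-regulated. The other 5 lists held 0 or 1 DEG each. Of the 25 genes of porphyrin and chlorophyll metabolism, 22 had a lower mean log2 level in D + F and 3 a higher one, with a median log2 fold change of -0.44 against 0.13 for all tested genes. Only 1 of them was called, upward, and it was not called after median-of-ratios scaling. Aminoacyl-tRNA biosynthesis had 0 DEGs of 21 in limma and 0 at an unadjusted p under 0.05, with a median of -0.08. Ascorbate and aldarate metabolism had 1 up-regulated gene of 24.

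The largest changes were in genes without a symbol. BnaC06g22120D fell from 168, 229 and 113 FPKM to 1.83, 7.68 and 4.37 FPKM, a log2 fold change of -5.01 ± 0.43 (SE, limma adjusted p = 0.0167). BnaCnng63660D fell from 12, 31.3 and 42.4 FPKM to 0, 0.420 and 0 FPKM, with at most 2 reads in D + F, so that D was at least 41.5-fold higher with the floor at 3 reads per library. Both were at 0 FPKM in all 3 CK libraries. The gene lengths solved from the FPKM are short, at 120 and 183 bases.

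The largest increases of this kind were more scattered. BnaA10g07250D rose from 2.17, 3.15 and 4.33 FPKM to 91.5, 27.3 and 35.8 FPKM (log2 fold change 3.47, limma adjusted p = 0.0245). BnaC07g44080D rose from 4.46, 1.73 and 2.11 FPKM to 15.2, 26.3 and 74.2 FPKM (log2 fold change 3.16, limma adjusted p = 0.0490). The CK libraries were as scattered as D + F, at 86.9, 9.45 and 8.54 FPKM for the first and 14.2, 23.6 and 102 FPKM for the second. Complete appearance or loss was rare. In 10 up-regulated DEGs no D library had more than 3 reads, with a median of 2.94 FPKM in D + F, and in 12 down-regulated DEGs no D + F library did, with a median of 3.84 FPKM in D. A gene below the filter's level throughout either group can pass the filter only through the other group.

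More genes were above 1 FPKM in D + F. The D libraries had 46123, 46202 and 46893 such genes and the D + F libraries 47292, 47984 and 48924. The groups did not overlap, and the two-sided exact permutation test gave p = 0.10, the smallest that 3 against 3 libraries allow. The top 50 genes held 19.7%, 21.0% and 16.4% of the summed FPKM in D and 17.7%, 16.1% and 13.3% in D + F, and these ranges overlapped. The part of this share in the count of genes above 1 FPKM was not tested. After median-of-ratios scaling the mean difference fell from 1661 to 744 genes.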

How the data were processed

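RNA-seq libraries of leaf 3 were analysed from the deposited FPKM values, 1 file per library. Per the paper, the authors filtered the reads for quality, adapters and unread bases, mapped the pairs to *B. napus* using TopHat 2.0.12, counted them per gene with HTSeq 0.6.1 and divided the counts by gene length and library total to give the deposited FPKM. The submitters' processing notes also name Bowtie 0.12.2 and a mouse build, which these rapeseed identifiers contradict, and how reads of several copies were counted is not given in the sources used here. No genome came with the series. Of the identifiers, 3347 match a RefSeq symbol, none of them among the 139 genes with a symbol, so no sequence or position is given.

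Read counts, lengths of genes and totals of libraries were recovered from the digits of the FPKM, with 99.998% of 589231 values whole within 0.01 reads. They served for depth, for the floor of 3 reads and for limma's voom only, and bounds from them cover counting error only.

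Genes above 1 FPKM in at least 3 of the 6 libraries were fitted on log2(FPKM + 1) with limma 3.58.1 (empirical Bayes with trend) in R 4.3.3, D + F against D, with Benjamini-Hochberg adjustment over all 48044 genes. The p-values measure the spread between these libraries. Summaries were made in Python 3.11.15 with pandas 2.3.3 and numpy 2.4.6, exact tests with scipy 1.17.1, figures with matplotlib 3.10.9. On data simulated for this comparison with 48330 genes, the fit called 54 of 100 genes changed 2-fold and 100 of 100 changed 4-fold, with 18 false calls.

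Symbols and pathway lists came from the study's supplementary files and text. In each role group, the genes named are every DEG, the gene with the highest mean FPKM and copies opposite in sign to a called copy, and without a symbol the 2 largest rises and 2 largest falls among non-overlapping DEGs with a mean of at least 10 FPKM. A few others were named after their values were seen (*P5CS1* BnaA05g05760D, *PRODH1*, *GLN1-3*, *GLT1*, *GSH3*, *OTC*, *PAL2*, *ADT1*, *ADT2*, *ADT5*, *TSB1*, *GOLS2*, *RFS5*, *RFS6*, *APX1*, *SPS2* and the C copies of *RFS2* and *NADP-ME1*). Members, lists and tests were chosen with earlier results of these data known.

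As alternatives, the pseudocount was set to 0.1, the filter was dropped or set to a mean FPKM of at least 5, and the data were refitted with median-of-ratios scaling over 41986 genes (factors from 0.913 to 1.15), quantile normalization, all 9 libraries in 1 fit, no trend, a block for replicate number, voom on the solved reads, a 2-fold minimum, and each library left out in turn.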

Additional observations from a re-analysis of the deposited data

How the results depend on the processing

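Leaving out single libraries gave 1 to 637 DEGs, with 0 to 483 up-regulated and 1 to 154 down-regulated, and 0 to 2 DEGs of proline synthesis, 0 to 6 of glutamine and glutamate and 0 to 7 of phenylpropanoids and flavonoids. Without a filter on low values there were 200 DEGs (146 up, 54 down), with 1 of proline synthesis and 5 of phenylpropanoids, and with a mean FPKM of at least 5 there were 297 (196 and 101), with 3 of phenylpropanoids. More genes (73829) or fewer (28289) were then tested. The voom fit on solved reads gave 361 DEGs, 204 of them up-regulated, and 5 of phenylpropanoids, a count also given by a pseudocount of 0.1. The fit on all 9 libraries called 0 of phenylpropanoids. Quantile normalization left 271 up-regulated DEGs and a median log2 fold change over all tested genes of -0.0016, against 0.0067 with median-of-ratios scaling and 0.13 as deposited. The causes were not tested.

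With the replicate number as a block there was 1 DEG, 0 up-regulated and 1 down-regulated, and 0 in each of the 3 gene groups, with 8042 genes at an unadjusted p under 0.05 in limma. The block with median-of-ratios scaling gave 11 DEGs, 3 up-regulated and 8 down-regulated, with 2 of glutamine and glutamate and 0 of the other groups. Same-numbered libraries deviated from their group means with correlations of -0.20, -0.10 and 0.23, and 1 of the 3 D libraries correlated best with the D + F library of its number. With 3 libraries per group these values cannot decide whether the numbers pair the libraries, and the sources do not state a pairing.

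The 27 called genes with a symbol kept their direction in each alternative fit that included them. In the leave-one-out fits their libraries, which did not overlap between the groups, allowed no reversal. Of the 120 tested genes with a symbol, 20 reversed in 1 or more leave-one-out fits, none of them called, and 108 kept their sign without D + F replicate 1. Among named genes, the log2 fold changes over those fits ran from -0.15 to 0.064 for *HST* BnaC07g00330D, from -0.30 to 0.36 for *HDH* BnaCnng13210D, from -0.13 to 0.20 for *GLN1-3* BnaA05g22420D and from -0.82 to 0.13 for *GOLS2* BnaA09g15290D. For *TSB1* they ran from -1.18 to 0.021 in BnaA09g09540D and from -0.93 to 0.16 in BnaA09g09550D. For *RFS6* they ran from -0.27 to 0.30 in BnaA02g04780D, from -0.83 to 0.070 in BnaA10g15160D, from -0.47 to 0.13 in BnaC09g37510D and from -0.29 to 0.16 in BnaC09g37530D. *GLN1-3* BnaA05g22420D was also at -0.098 with median-of-ratios scaling, with or without the block, at -0.0513 with quantile normalization and at -0.11 with voom. The median of the 13 galactinol and raffinose genes went from -0.10 to 0.13 without D + F replicate 1, with 8 signs kept. In the simulation, which changed only genes with a mean above 5 FPKM, 54 of 100 2-fold changes were called. A change of that size can thus be missed with 3 libraries per group. Larger differences also went uncalled in the data, such as *P5CS1* BnaA05g05760D, whose mean was 3.66-fold lower in D + F.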
